A study of Mus musculus with 36 samples.

Results

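The genes described here are Uba1, Uba2, Uba3, Uba6, Sae1, Nae1 and Atg7, which encode the E1 activating enzymes of ubiquitin and of its relatives. They were found by symbol among the entries of a gene count table, where each of the 7 had 1 entry of 55492 in all. The choice was not blind to the data. Uba1 was selected on its adjusted p between DEX and control over both batches, where it was 1 of the 5 genes called, so its differences between treatments are given as a description with no test, and the other 6 members were added for their function.

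The samples were RNAseq libraries of dissociated mouse cortical cells of the label C57EDCX, taken at embryonic day 18, bought as vials and grown until day 11 in vitro. The labels name no genetic change in any of the 36 cultures. Untreated control cultures received no drug, DEX cultures received 1 µM dexamethasone (DEX), an agonist of the glucocorticoid receptor, for 72 h, and DEX + RU-486 cultures received 1 µM DEX with 1 µM RU-486 (mifepristone), which blocks that receptor. Each of the 3 groups had 12 libraries, 6 in each of the 2 batches that the labels give, and no group was treated with RU-486 alone. Nothing in the labels says that the libraries of 1 group came from separate animals, so the tests measure the spread between cultures, which may be technical.

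An E1 enzyme uses ATP to activate a small protein modifier and passes it to an E2 enzyme, from which it reaches its target, usually with the help of an E3 ligase. Uba1 activates most ubiquitin in the cell and Uba6 is the other ubiquitin E1, Sae1 and Uba2 pair to activate SUMO, Nae1 and Uba3 pair to activate NEDD8, whose main targets are the cullin ubiquitin ligases, and Atg7 serves the ubiquitin-like proteins of autophagy.

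Libraries held 12.1 to 82.4 M counts on genes (median 25 M). The RNA integrity number (RIN), for which a low value marks degraded RNA, was 6 or above in 28 libraries and under 6 in 8. In batch 2 each group held 2 libraries of RIN under 3. In batch 1 RIN and depth went with the treatment, since control libraries had a RIN of 7.8 to 9.2 and 24.2 to 82.4 M counts, DEX libraries a RIN of 3.9 to 7.8 and 12.1 to 22.3 M, and DEX + RU-486 libraries a RIN of 5.6 to 7.9 and 17.4 to 26.7 M. The neuronal gene Map2 was at 825 CPM (gene counts relative to a library size of 1e+06) or more in every library. The 7 oligodendrocyte lineage markers were also detected, at a summed level of 59.2 to 272 CPM in batch 1 control libraries, 458 to 2082 CPM in DEX and 211 to 896 CPM in DEX + RU-486. In batch 2 the sum was 385 to 2157.5 CPM in control, 559 to 1003.5 CPM in DEX and 130 to 950 CPM in DEX + RU-486.

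Uba1 lies on the X chromosome at chrX:20658326-20683179, plus strand, of the mouse genome build GRCm38. RefSeq lists 3 start sites for it, and the windows from 250 bases before to 50 bases after a start site were searched for the glucocorticoid receptor half-site, AGAACA or TGTTCT on either strand. Of the 7 members, 5 had such windows, 7 in number, and Uba6 and Sae1 had none in the RefSeq table. The half-site occurred in 2 of the 7 windows, both of Uba1, and in 19% of all 32851 promoter windows. The full site, AGAACA and TGTTCT with 3 bases between them, occurred in 0 of the 7 and in 0.00913% of all windows. Only exact matches were counted. The 250 bases before the start sites at position 20658302 and at position 20662896 are printed because the half-sites fall there, with the half-site in capitals, 150 to 145 and 102 to 97 bases before the start. In the first stretch AGTTCT follows the half-site after 3 bases, and how often such a near match occurs in other windows was not counted. Neither stretch overlaps an annotated exon of GENCODE, and a match of letters is not evidence of binding.
Uba1, chrX:20658052-20658301, plus strand: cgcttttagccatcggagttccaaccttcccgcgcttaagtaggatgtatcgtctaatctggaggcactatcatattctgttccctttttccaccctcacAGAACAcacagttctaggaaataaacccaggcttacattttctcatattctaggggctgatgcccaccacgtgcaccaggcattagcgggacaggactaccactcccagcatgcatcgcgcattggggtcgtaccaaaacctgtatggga
Uba1, chrX:20662646-20662895, plus strand: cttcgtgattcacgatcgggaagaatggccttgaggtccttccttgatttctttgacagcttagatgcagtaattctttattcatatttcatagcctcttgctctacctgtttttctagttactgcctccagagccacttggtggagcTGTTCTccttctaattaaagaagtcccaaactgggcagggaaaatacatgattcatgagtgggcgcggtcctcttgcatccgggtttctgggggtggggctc

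The members differed widely in abundance. Levels between genes are compared as RPKM, which is CPM divided by the exon length in kilobases, over the 10 untreated libraries of RIN 6 or above. Uba1 had a median of 58.6 RPKM (range 51.1 to 72.5), the highest of the 7. Sae1 followed at 14.8 RPKM (10.5 to 19.1) and Uba2, its partner, at 7.85 RPKM (7.36 to 8.38). The NEDD8 pair came next, with Uba3 at 5.62 RPKM (4.75 to 7.08) and Nae1 at 3.25 RPKM (3.05 to 3.85). Uba6 stood at 2.86 RPKM (1.99 to 3.42) and Atg7 was the lowest at 1.15 RPKM (0.998 to 1.34). Nae1 and Uba6 overlapped, and every other pair of neighbours in this order was separate.

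**Figure D1:**
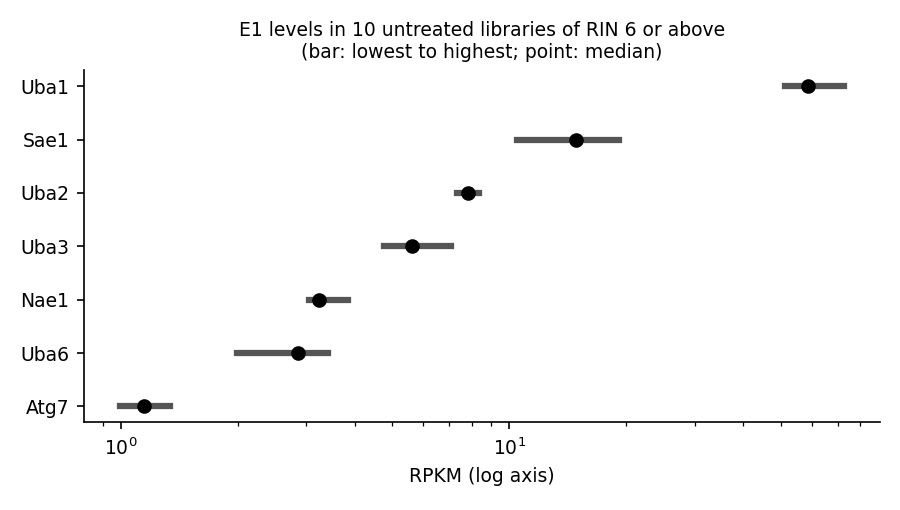
RPKM of the 7 E1 members in the 10 untreated libraries of RIN 6 or above, on a log axis, with points for the median and lines from the lowest to the highest library. Uba1 has a median of 58.6 RPKM and Atg7 of 1.15 RPKM, and Nae1 and Uba6 are the neighbours whose ranges overlap.

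Uba1, the main ubiquitin E1, was lower in DEX than in control libraries of both batches, with the larger difference in batch 1. In batch 1 the 6 control libraries had between 276 and 349 CPM (median 305 CPM), where CPM rests on library sizes scaled by the trimmed mean of M-values (TMM). The 6 DEX libraries had between 171 and 219 CPM (median 196 CPM) and the 6 DEX + RU-486 libraries ran from 178 to 257 CPM (median 196 CPM). Every treated library of batch 1 was below every control library, whereas DEX and DEX + RU-486 overlapped. The groups also did not overlap in CPM for 9.86% of all tested genes in DEX against control and for 7.15% in DEX + RU-486 against control. The fitted level was 0.652 times that of control in DEX, a log2 difference of -0.62 ± 0.0976 (SE), and 0.680 times in DEX + RU-486 (-0.56 ± 0.0975). DEX + RU-486 and DEX differed by 0.06 ± 0.0974 on the log2 scale, less than its error.

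In batch 2 the order of the groups was clear in the libraries of intact RNA (RIN 6 or above) and not in all libraries. The 4 control libraries of RIN 6 or above had 246, 250.2, 251 and 268 CPM of Uba1, while the other 2 controls, of RIN 2.7 and 1.8, had 207 and 172 CPM. The 4 intact DEX libraries had 186, 193, 207 and 208 CPM, and those of RIN 2.2 and 1.4 had 205 and 187 CPM. The 4 intact DEX + RU-486 libraries had 209, 227, 229 and 235 CPM, and those of RIN 1.5 and 2.1 had 207 and 215 CPM. Among the 12 intact libraries of the batch the 3 groups did not overlap, with DEX lowest, DEX + RU-486 between and control highest. Of all tested genes, 11.5% did not overlap there between DEX and control, 6.91% between DEX + RU-486 and control and 8.4% between DEX + RU-486 and DEX. With all 18 libraries the groups overlapped, with degraded controls as low as treated libraries and a degraded DEX + RU-486 library, at 207 CPM, below the highest DEX library at 208 CPM. The log2 difference between DEX and control was -0.34 ± 0.0667 in the intact libraries, 0.789 times the control level, and -0.22 ± 0.117 with all of them. For DEX + RU-486 against control it was -0.16 ± 0.0666 and -0.07 ± 0.117. DEX + RU-486 was above DEX by 0.18 ± 0.0667 in the intact libraries and by 0.15 ± 0.117 in all.

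**Figure D2:**
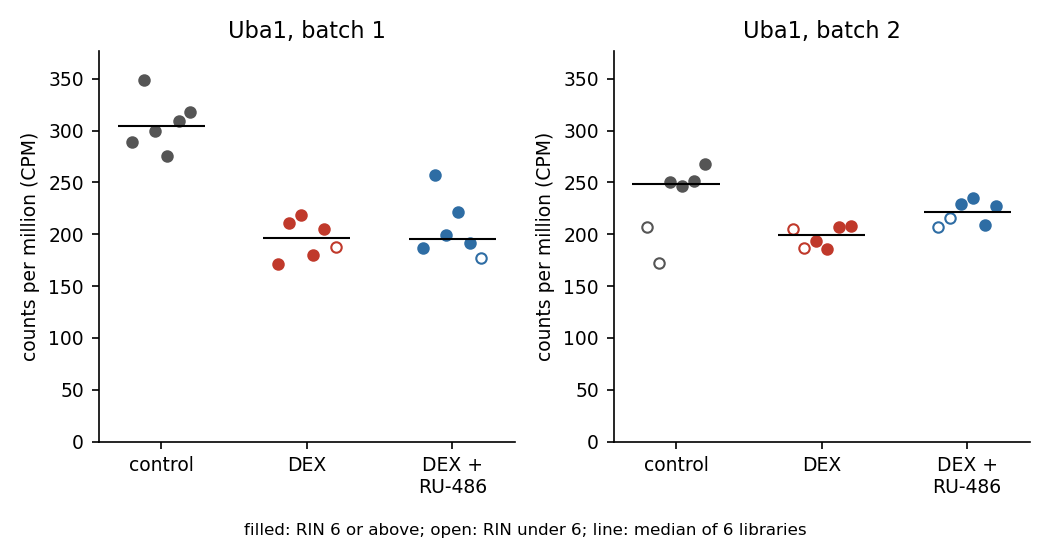
Uba1 in CPM for each library, by treatment, in one panel for each batch. Filled points are libraries of RIN 6 or above, open points are those of RIN under 6, and the line is the group median, and the treated libraries of batch 1 all lie below the lowest control at 276 CPM.

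Over both batches the log2 difference of Uba1 was -0.45 ± 0.0847 for DEX against control and -0.33 ± 0.0847 for DEX + RU-486 against control, and with the 28 intact libraries it was -0.52 ± 0.0707 and -0.38 ± 0.0706. DEX + RU-486 was above DEX by 0.12 ± 0.0845 over both batches. The difference in batch 1 minus that in batch 2 was -0.41 ± 0.146 for DEX and -0.50 ± 0.146 for DEX + RU-486. These comparisons share their control libraries and are not independent of each other. As a background, 0.0246% of the 20355 tested genes were called between DEX and control over both batches, and Uba1 is 1 of them by choice.

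Uba1 was also compared where treatment played no part. The libraries are among those in which Uba1 was selected, and such a choice can favour a small spread. Its adjusted p-values in this paragraph are therefore descriptions. In untreated cultures Uba1 was higher in batch 1 than in batch 2 by 0.44 ± 0.126 on the log2 scale, or 1.35-fold (adjusted p = 0.0203), in a comparison that called 28.3% of tested genes. All p-values are from the quasi-likelihood test of edgeR with Benjamini-Hochberg adjustment over the tested genes, and called means an adjusted p under 0.05. Xist, the RNA of the inactive X chromosome, had 16.7 to 983 CPM in batch 1 and 0.0780 to 3.51 CPM in batch 2, and the 651 X-linked genes tested had a median difference of 0.17 between untreated batches against -0.08 for all genes. Their part in the batch difference of Uba1 was not tested. Within batch 2, with the treatment in the model, Uba1 in the 6 libraries of RIN under 6 differed from the 12 others by -0.19 ± 0.0773 (adjusted p = 0.0387), where 55.2% of tested genes were called.

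Uba6, the other ubiquitin E1, did not pass the test in any comparison of treatments. Its batch 1 libraries ranged from 16.2 to 25.7 CPM in control, from 15.1 to 33.4 CPM in DEX and from 13.3 to 26.7 CPM in DEX + RU-486, which overlap throughout. The log2 difference between DEX and control was 0.14 ± 0.175 in batch 1 (adjusted p = 0.638) and 0.08 ± 0.164 over both batches (adjusted p = 0.854). As a ratio of RPKM, Uba6 to Uba1 had a median of 0.0405 in batch 1 control, 0.0612 in DEX and 0.0610 in DEX + RU-486, and of 0.0592, 0.0746 and 0.0595 in batch 2, and with all libraries the ranges overlap in each batch. In libraries of RIN 6 or above the batch 1 controls lay between 0.0274 and 0.0525, the DEX libraries between 0.0549 and 0.115 and those with RU-486 between 0.0527 and 0.0843. The intact batch 2 controls lay between 0.0582 and 0.0656, DEX between 0.0715 and 0.0989 and those with RU-486 between 0.0579 and 0.0743. The ratio was thus higher in intact DEX libraries than in intact controls of each batch, a description, since it has Uba1, the gene selected for its difference, below the line.

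For the SUMO pair, Sae1 passed the test in batch 1 with RU-486 present. Sae1 had 37.9 to 49.7 CPM in the batch 1 controls (median 43.6 CPM), 30.7 to 41.4 CPM in DEX (median 33.9 CPM) and 26.8 to 38.8 CPM in DEX + RU-486 (median 32.8 CPM). It fell by 0.38 ± 0.107 on the log2 scale in DEX + RU-486 against control (adjusted p = 0.0217), with 15.4% of tested genes called in that comparison. The ranges of these groups overlap at 1 end, and the call was lost with RIN as a covariate (-0.44 ± 0.127, adjusted p = 0.0584) and without DEX + RU-486 library 17 (adjusted p = 0.0555). Between DEX and control of batch 1 the difference was -0.27 ± 0.107 (adjusted p = 0.0769), which did not pass.

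Uba2, the catalytic subunit of the pair, had 44.4 to 50.6 CPM in batch 1 control, 36.8 to 48.3 CPM in DEX and 34.1 to 47.6 CPM in DEX + RU-486. Its difference in DEX + RU-486 against control was -0.23 ± 0.0914 (adjusted p = 0.0949) in batch 1. In the intact libraries of batch 2 the 4 DEX + RU-486 libraries, at 38.9 to 43.8 CPM, were below the 4 controls at 46.1 to 48.0 CPM and below the 4 DEX libraries at 44.1 to 48.1 CPM, without overlap, as were the groups of 6.91% and 8.4% of all genes in these comparisons. Fitted over all genes, the difference from control there was -0.16 ± 0.0698 (adjusted p = 0.626) and did not pass. The ratio of Sae1 to Uba2 in RPKM had medians of 2.07 in control, 1.95 in DEX and 1.98 in DEX + RU-486 of batch 1, and of 1.38, 1.54 and 1.58 in batch 2.

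Of the NEDD8 pair, Nae1 passed the test in batch 1. Nae1, the regulatory subunit, had 25 to 31.6 CPM in the 6 controls (median 27.3 CPM) and 15.1 to 22.5 CPM in the 6 DEX libraries (median 19.96 CPM), which do not overlap, as for 9.86% of all genes. The 6 DEX + RU-486 libraries had 12.6 to 25.6 CPM (median 20.2 CPM) and overlapped with control only at their highest value. Nae1 fell by 0.51 ± 0.140 on the log2 scale in DEX (adjusted p = 0.0145), to 0.703 times control, in a comparison in which 19% of tested genes were called. In DEX + RU-486 it fell by 0.46 ± 0.139 (adjusted p = 0.0283). With RIN as a covariate both calls were lost, at -0.21 ± 0.168 (adjusted p = 0.520) and -0.25 ± 0.145 (adjusted p = 0.355), in fits that called 2.78% and 2.6% of all genes.

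Uba3, the catalytic subunit, had 34.03 to 45.1 CPM in batch 1 control, 20.6 to 38.1 CPM in DEX and 23.96 to 38.1 CPM in DEX + RU-486. Its difference in DEX against control was -0.36 ± 0.131 (adjusted p = 0.0573), just short of the threshold. The ratio of Nae1 to Uba3 in RPKM had medians of 0.579, 0.540 and 0.496 in batch 1 control, DEX and DEX + RU-486, and of 0.591, 0.587 and 0.620 in batch 2. In the intact batch 2 libraries Nae1 had 25.1 to 27.1 CPM in control, 16.9 to 30.6 CPM in DEX and 26.6 to 30.9 CPM in DEX + RU-486, and the difference between DEX and control was 0.01 ± 0.139 (adjusted p = 0.969).

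Atg7, the E1 of autophagy, had 7.04 to 8.49 CPM in batch 1 control, 5.71 to 8.84 CPM in DEX and 7.17 to 9.15 CPM in DEX + RU-486. DEX and control differed by 0.01 ± 0.130 (adjusted p = 0.956). Its counts may be shared with 3 processed pseudogenes that lie inside it on the same strand, of which Gm19040 had a mean of 34.6 counts against 210 for Atg7.

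**Figure D3:**
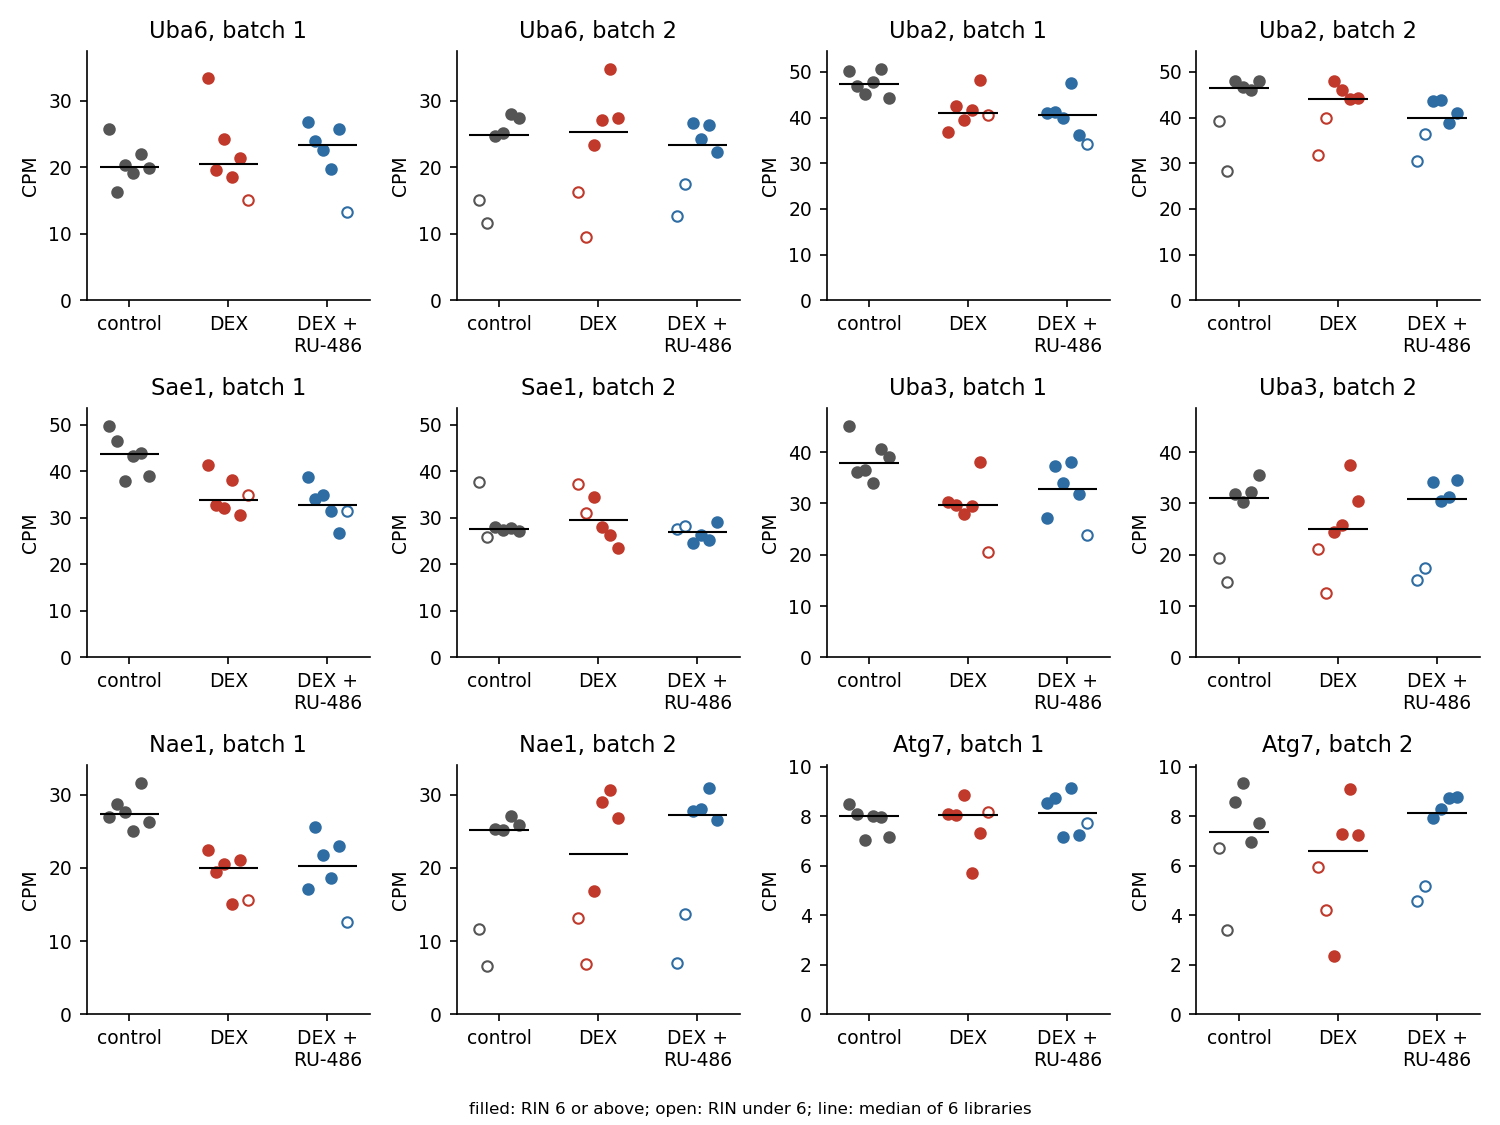
CPM of the 6 members other than Uba1 in each library, by treatment and batch. Filled points are libraries of RIN 6 or above and open points those of RIN under 6, and the separation of Nae1 in batch 1, at 25 to 31.6 CPM in control and 15.1 to 22.5 CPM in DEX, is the one without overlap in that batch.

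Counted over the 6 members, 1 was called between DEX and control in batch 1 (Nae1, lower) and 2 between DEX + RU-486 and control (Nae1 and Sae1, lower), to be read against 19% and 15.4% of all genes. The median log2 difference of the 6 was -0.22 and -0.24, against 0.06 and 0.05 for all genes. DEX + RU-486 against DEX in batch 1 called 0 of the 6 and 0% of genes by edgeR, 833 genes having an unadjusted p under 0.05, and DESeq2 called 0 of the 6. In batch 2 all 3 comparisons called 0 of the 6 and 0% of genes, with 446, 182 and 443 genes at an unadjusted p under 0.05 for DEX against control, DEX + RU-486 against control and DEX + RU-486 against DEX, 0 of the members being among them and DESeq2 calling 0.

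Over both batches edgeR called 0 of the 6 members in each comparison. At an unadjusted p under 0.05 the members were 0 of 6 for DEX against control, where 3446 genes (16.9%) were, 2 of 6 for DEX + RU-486 against control (Sae1 at -0.26 ± 0.0856, adjusted p = 0.246, and Uba2 at -0.19 ± 0.0833, adjusted p = 0.402) and 0 of 6 for DEX + RU-486 against DEX, and DESeq2 called 0 in all. The background of DEX + RU-486 against control and of DEX + RU-486 against DEX was 0% of genes, with 2203 and 545 at an unadjusted p under 0.05. The differences between batches in these effects were tested directly. The DEX effect differed between batches for 0.172% of genes and the DEX + RU-486 effect for 0.0835%, and 0 of the 6 members were among them by edgeR, the nearest being Sae1 in DEX (unadjusted p = 0.0311, adjusted p = 0.328). A response in batch 1 alone is therefore not shown for Nae1 or Sae1.

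With libraries of RIN under 6 left out, some of these calls shifted. Over both batches Uba3 passed in DEX against control (-0.23 ± 0.0819, adjusted p = 0.0415) where 19.7% of genes were called, and Uba2 passed in DEX + RU-486 against control (-0.19 ± 0.0584, adjusted p = 0.0363) where 8.86% were. Nae1 stood at -0.29 ± 0.106 in DEX (adjusted p = 0.0514) and Sae1 at -0.25 ± 0.0855 in DEX + RU-486 (adjusted p = 0.0573). DEX + RU-486 against DEX called 0% of genes, 1817 having an unadjusted p under 0.05. In batch 1 alone Nae1 in DEX kept its call (-0.44 ± 0.116, adjusted p = 0.0118) at a background of 19%, and Sae1 in DEX + RU-486 kept it (-0.34 ± 0.109, adjusted p = 0.0425) at 13.5%, where Nae1 lost its call (-0.34 ± 0.115, adjusted p = 0.0537), while DEX + RU-486 against DEX called 0% of genes and 1189 had an unadjusted p under 0.05. In batch 2 alone 0 of the 6 members were called by edgeR, where DEX against control called 0.565% of genes, DEX + RU-486 against control 0.00491% and DEX + RU-486 against DEX 1.56%, and Uba2 in DEX + RU-486 against control was the 1 member with an unadjusted p under 0.05 in these 3 comparisons (p = 0.0342), where 17.2%, 7.55% and 19.3% of all genes had one.

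**Figure D4:**
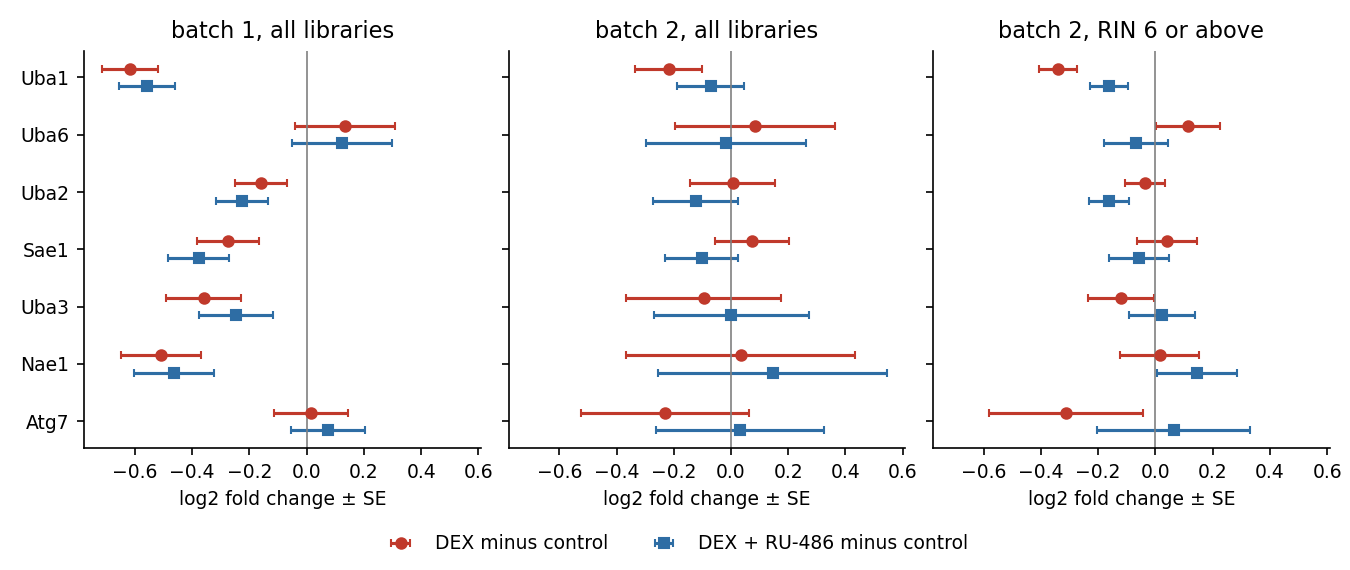
Log2 differences ± SE of the 7 members for DEX minus control and DEX + RU-486 minus control, in panels for batch 1, batch 2 and the libraries of batch 2 with RIN 6 or above. Uba1 lies at -0.62 in batch 1 and at -0.34 in the intact libraries of batch 2 for DEX, and the error bars of the other members in batch 2 are wider with all libraries than with the intact ones.

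Members also differed with RNA integrity. Within batch 2, with the treatment in the model, the 6 libraries of RIN under 6 had less RNA of 5 of the 6 members than the 12 others. Nae1 fell by 1.44 ± 0.164 on the log2 scale (adjusted p = 2.58e-07), to 0.368 times the level of the others, and Uba6 fell by 0.95 ± 0.124 (adjusted p = 1.62e-06). Uba3 fell by 0.93 ± 0.117 (adjusted p = 9.39e-07), Atg7 by 0.62 ± 0.216 (adjusted p = 0.0195) and Uba2 by 0.40 ± 0.0857 (adjusted p = 4.69e-04). Sae1 was the exception, at 0.18 ± 0.0962 (adjusted p = 0.127). Of all genes 55.2% were called there. Several of the 6 varied together across libraries, so a count of 5 of 6 does not set the members apart from that background. The median of the 6 was -0.77 against 0.04 for all genes. In batch 1 the DEX libraries had the lower RIN, so the parts of RIN and of treatment in the values there cannot be told apart.

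Among untreated cultures Sae1 was higher in batch 1 than in batch 2 by 0.62 ± 0.115 (adjusted p = 0.00235), or 1.54-fold, the 1 member of the 6 that passed, in a comparison that called 28.3% of all genes. The 4 intact batch 2 controls had 27.2 to 27.9 CPM of Sae1, those of RIN 2.7 and 1.8 had 37.6 and 25.9 CPM, and the 6 batch 1 controls had 37.9 to 49.7 CPM. Uba3 (0.52 ± 0.195, adjusted p = 0.0568) and Nae1 (0.47 ± 0.277, adjusted p = 0.210) had positive differences that did not pass.

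**Figure D5:**
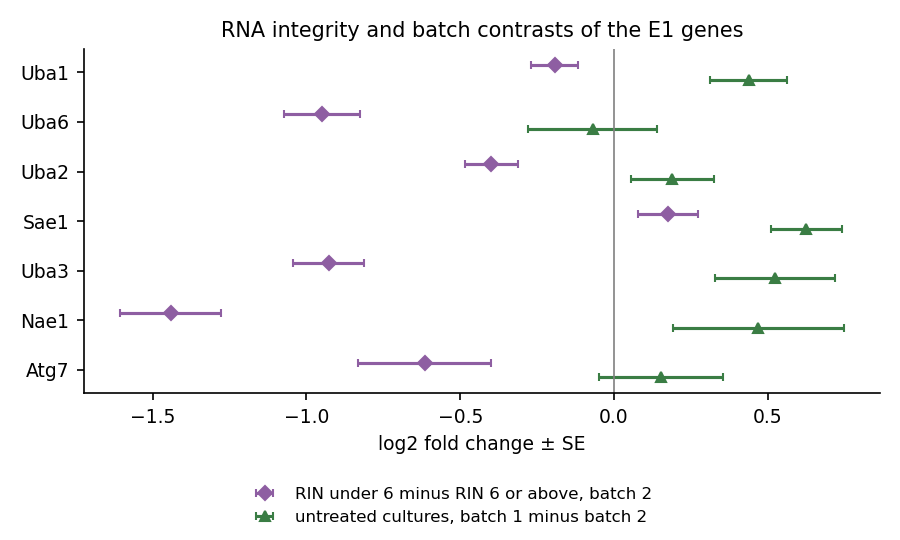
Log2 differences ± SE of the 7 members between libraries of RIN under 6 and RIN 6 or above in batch 2, and between untreated cultures of batch 1 and batch 2. Nae1 is lowest in the RIN comparison at -1.44, and Sae1 is highest between batches at 0.62.

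The other genes of the conjugation cascades were read from lists of their members. In DEX against control of batch 1, where 19% of tested genes were called and the median of all was 0.06, 13 of 30 ubiquitin E2 enzymes were called lower and 0 higher (median -0.29). The genes named in this paragraph were picked for small p-values in this comparison. Ube2q2 (-0.61 ± 0.107, adjusted p = 0.00101) and Ube2n (-0.71 ± 0.125, adjusted p = 0.00108) were the E2 enzymes with the smallest p. Ube2v2, a cofactor of Ube2n, fell by 0.73 ± 0.162 (adjusted p = 0.00412). Of 16 NEDD8 ligases, cullins and proteases 6 were lower and 0 higher (median -0.27), among them the cullins Cul2 (-0.71 ± 0.129), Cul3 (-0.54 ± 0.124) and Cul1 (-0.52 ± 0.134) and the cullin exchange factor Cand1 (-0.40 ± 0.0959). Of 7 E2 enzymes for other modifiers 1 was lower, Ube2f (-0.63 ± 0.186), an E2 of NEDD8. Of 12 ubiquitin-like modifiers tested 1 was lower, Sumo2 (-0.41 ± 0.106).

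In the same comparison, of 12 SUMO ligases and proteases 1 was higher (Pias4, 0.43 ± 0.115) and 2 lower (Pias1 and Senp2). Of 6 partners in ATG8 and ATG12 conjugation 1 was higher, the protease Atg4a (1.23 ± 0.240). In DEX + RU-486 against control of batch 1, 11 of 30 ubiquitin E2 enzymes and 8 of 16 NEDD8 genes were lower and 0 of either higher, at a background of 15.4% of all genes. Over both batches 0 genes of these lists were called by edgeR in the comparisons of treatments, which is the background there, since 0.0246% of all genes were called between DEX and control and 0% in the other comparisons. At an unadjusted p under 0.05, 12 of 30 E2 enzymes and 7 of 16 NEDD8 genes were lower between DEX and control over both batches and 0 higher, where 16.9% of all genes passed. The intact libraries of batch 2 gave 0 calls between DEX and control, where 0.565% of all genes were called, with medians of -0.02 for the E2 enzymes and -0.06 for the NEDD8 genes.

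The same lists were compared between batches and between RIN classes. Between untreated cultures 15 of 30 ubiquitin E2 enzymes and 9 of 16 NEDD8 genes were higher in batch 1, 1 E2 enzyme was lower, and 28.3% of all genes were called. In libraries of RIN under 6, 12 E2 enzymes were higher and 6 lower, and 11 NEDD8 genes were lower and 1 higher, where 55.2% of all genes were called.

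Markers of cell types also differed in batch 1 between DEX and control, where 19% of all genes were called. Of 8 neuron markers 4 were called lower, among them Rbfox3 (-0.67 ± 0.1145) and Tubb3 (-0.60 ± 0.134), while the inhibitory neuron genes Gad2 (0.58 ± 0.327) and Gad1 (0.28 ± 0.254) had positive differences that did not pass. The summed level of the 8 was 2258 to 2984 CPM in control and 1696 to 2633 CPM in DEX. Of 7 oligodendrocyte lineage markers 5 were called higher, with Mbp at 2.62 ± 0.443, and 3 of 6 astrocyte and 3 of 4 dividing cell markers were higher. Microglia markers summed to at most 1.36 CPM in these libraries. Over all libraries of batch 2, the degraded ones included, 0% of genes were called between DEX and control. Rbfox3 was there at 0.09 ± 0.160, Tubb3 at -0.11 ± 0.241 and Mbp at -0.08 ± 0.502. Fewer cells of a type and less RNA per cell cannot be told apart in libraries of whole cultures, and the part of cell composition in the values of Uba1, Nae1 and the E2 enzymes was not tested. Of 7 targets of the glucocorticoid receptor 3 were called higher between DEX and control of batch 1 (Per1 at 0.80 ± 0.1996, Tsc22d3 at 0.67 ± 0.220 and Ddit4 at 0.37 ± 0.130). The others were not called there, with Fkbp5 at -0.05 ± 0.196, Sgk1 at 0.22 ± 0.227, Klf9 at 0.50 ± 0.329 and Zbtb16 at 0.93 ± 0.347. Over both batches 0 of 7 were called, where 0.0246% of all genes were. With RU-486 present in batch 1, Per1 (0.75 ± 0.199, adjusted p = 0.0158) and Ddit4 (0.50 ± 0.130, adjusted p = 0.0139) were called higher and Tsc22d3 was at 0.61 ± 0.219 (adjusted p = 0.0603). Fkbp5 was at -0.33 ± 0.196, Sgk1 at -0.30 ± 0.227, Klf9 at 0.22 ± 0.328 and Zbtb16 at 0.43 ± 0.346, without a call. In batch 2, with all libraries, degraded ones included, Per1 was at 0.09 ± 0.117, Tsc22d3 at -0.05 ± 0.224 and Ddit4 at -0.13 ± 0.187 between DEX and control. In that fit 0 of 7 targets were called by edgeR and 0 had an unadjusted p under 0.05. Of all genes 0% and 2.19% did, so these counts are those of the background. The intact libraries alone are not given here for these targets.

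Further E1 genes were read in the same way. Mocs3, which activates URM1, had 5.35 to 7.29 CPM in batch 1 control and 4.80 to 7.49 CPM in DEX, which overlap. In the intact libraries of batch 2 the 4 DEX libraries, at 4.38 to 5.05 CPM, were below the 4 controls at 5.14 to 6.34 CPM (-0.30 ± 0.178, adjusted p = 0.398), where 11.5% of all genes did not overlap. Mocs3 and Uba1y, the Y-linked relative of Uba1, did not pass the test in any comparison of treatments. Uba7, the E1 of ISG15, had a mean of 4.97 counts and was below the filter. Uba1y had a mean of 13.4 counts and at most 1.92 CPM, against 6756 counts for Uba1, whose transcript it matches at 80.4% identity over 3186 bases. Uba3 has a processed pseudogene, Gm14538, of 92.4% identity over 1330 bases, which held a mean of 0.0556 counts against 903 for Uba3. No transcript of another gene aligned to those of Uba2, Uba6, Sae1, Nae1 or Atg7 over at least 200 bases.

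The protein-coding genes within 100000 bases of Uba1 were compared between the same groups. Ndufb11, Rbm10, Cdk16 and Usp11 had log2 differences of 0.11, -0.03, -0.02 and 0.13 between DEX and control over both batches, and 0 of the 4 were called by edgeR, where 0.0246% of all genes were. In batch 1, where 19% were, Usp11, a deubiquitinase, rose by 0.28 ± 0.0855 (adjusted p = 0.0241) while Uba1 was lower by 0.62.

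Across the 36 libraries, with the mean of each batch removed, the genes whose log2 CPM was most like that of Uba1 were Dpysl2 (Pearson r = 0.922), Crmp1 (0.915), Rnf157 (0.913), Spin1 (0.907) and Stx7 (0.905). Dpysl2 and Crmp1 encode collapsin response mediator proteins of growing neurites and Rnf157 a ubiquitin ligase. Among the members, Uba2 and Uba3 had r = 0.570 and 0.5682 with Uba1, Nae1 0.538, Sae1 0.338, Atg7 0.308 and Uba6 0.156. In the libraries of RIN 6 or above these values were 0.597 for Uba2, 0.639 for Uba3, 0.645 for Nae1, 0.424 for Sae1 and 0.209 for Atg7, and that of Uba6 changed sign to -0.430. Nae1 and Uba3 had r = 0.916 in all libraries and 0.645 in those of RIN 6 or above, and Nae1 and Uba6 had 0.8288 and 0.0863. These points share treatment, RIN and depth, and the values are descriptions.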

How the data were processed

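RNAseq of 36 cultures was used, grouped by the treatment, batch and RIN in the sample labels, with doses and times from the study's methods. The members and gene lists were chosen with earlier results of these data known. The authors deposited 1 table of counts, whole reads per gene and library without normalization. The submitters' processing notes name HISAT2 2.1.0, Subread 1.5.0-p2 and GRCm38. The study describes more than 1 alignment, and which of them the table holds is not given in the sources used here, nor is the strand setting of the counting. The labels give poly(A) selection whereas the methods describe a total RNA library.

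Of 55492 entries 55227 matched GENCODE M21 of GRCm38, which gave symbols, coordinates and exon lengths, and 5 were transgene names. Genes with a mean above 5 counts (20355) entered edgeR 4.0.16 (R 4.3.3), scaled by TMM, with the quasi-likelihood test, all 3 groups in 1 model and batch as a covariate, or within a batch. P-values were adjusted over all tested genes, and a call is an adjusted p under 0.05. The SE is the log2 difference divided by the square root of F. Correlations used log2 CPM with a prior count of 2. Promoters and start sites are RefSeq's on GRCm38.p6, transcripts were compared with blastn 2.17.0, and figures drawn with matplotlib 3.10.9. The calculations were tested on simulated data. No 2 libraries were alike within sampling noise (lowest chi-square per degree of freedom 6.50), so each counts as 1 sample.

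The members, the other E1 genes, the genes most like Uba1 and its neighbours within 100000 bases were named by rule. Values of a few further genes are not reported here. Pathway genes were to be named where called over both batches, which gave 0, so those named in batch 1 were picked after their values were seen. Alternatives were DESeq2 1.42.0, no batch covariate, upper-quartile factors, RIN as a covariate, only libraries of RIN 6 or above, other filters on low counts, only the groups compared, and leaving out each library. Depth ranged from 12.1 to 82.4 M counts, and Atg7 rests on as few as 33 counts in a library and Nae1 on as few as 64.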

Additional observations from a re-analysis of the deposited data

Results flagged for a closer look

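Of 42 sets of 6 libraries (7 members, 3 treatments, 2 batches) 1 held a library far from the others, where chance gives about 1 in 20. Sae1 was at 37.6 CPM in 1 untreated library of batch 2, of RIN 2.7, with the next highest at 27.9 CPM, and this gap is 0.8291 of the range of the group, above Dixon's 95% critical value.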

How the results depend on the processing

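Uba1 kept its direction in all 48 values from other settings and in all 162 from leaving out 1 library over both batches or within batch 1, a step not run within batch 2. Since Uba1 was selected for its difference between DEX and control in these same libraries, a kept direction is no independent support for it. Its difference between DEX + RU-486 and DEX in batch 1, within its error as reported, ran from 2.27e-05 (without DEX + RU-486 library 14) to 0.0963. Under the other settings, DEX against control lay between -0.52 (RIN 6 or above) and -0.38 (at least 10 counts in every library) over both batches, and in batch 1 between -0.58 and -0.47, each nearer to 0 than the reported -0.62. Leaving out 1 library gave -0.49 to -0.41 over both batches and -0.67 to -0.59 in batch 1. Of the values of the other members under other settings, 271 kept direction and call. With RIN as a covariate the count of members called in batch 1 was 0 for DEX and 0 for DEX + RU-486 against control, where 2.78% and 2.6% of all genes were called in place of 19% and 15.4%, with Nae1 at -0.21 (adjusted p = 0.520) and -0.25 (adjusted p = 0.355) and Sae1 at -0.44 (adjusted p = 0.0584). In the libraries of RIN 6 or above the count was 1 for each of these comparisons over both batches (Uba3, then Uba2) and 1 for DEX + RU-486 in batch 1, where Nae1 was at -0.34 (adjusted p = 0.0537). With upper-quartile factors that count was also 1, at 14.1% of all genes, with Nae1 at -0.38 (adjusted p = 0.0609).

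Differences that changed sign, all without a call either way, were these. With RIN as a covariate Nae1 was at 0.0294 for DEX against control and -0.0359 for DEX + RU-486 against DEX over both batches, and for the latter at -0.0350 in batch 1 and -0.0022 in batch 2, while Atg7 was at -0.0487 for DEX in batch 1 and Uba3 at 6.0e-04 in batch 1 and -0.0248 in batch 2 for DEX + RU-486 against control. DESeq2 gave -0.0036 for that value of Uba3 in batch 2. In libraries of RIN 6 or above Uba6 was at 0.0125 for DEX + RU-486 against DEX in batch 1 and Uba2 at -0.0353 for DEX in batch 2.

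Leaving out 1 library in turn, chosen for batch 1 after seeing the data, gave 1 to 3 members called for DEX and 1 to 3 for DEX + RU-486 against control in batch 1, where 13.5% to 22.4% and 9.07% to 18.9% of all genes were called. Nae1 kept its call for DEX in 18 of 18 and for DEX + RU-486 in 14 of 18 (-0.56 to -0.37), losing it without controls 2 or 5 or DEX + RU-486 libraries 13 or 18, and Sae1 kept its call for DEX + RU-486 in 17 of 18, losing it without library 17. Uba3 gained a call for DEX in 6 of 18 (smallest adjusted p 0.0147), Sae1 in 2 and Uba2 for DEX + RU-486 in 1. Signs changed for Atg7 (-0.0479 to 0.0643 for DEX, -0.00648 to 0.106 for DEX + RU-486 against DEX), Nae1 (-0.0269 to 0.141 for the latter) and Uba6 (-0.0261 to 0.224 and -0.100 to 0.149) in batch 1, and over both batches for Atg7 (-0.0162 to 0.0954) and Uba6 (-0.0134 to 0.105) in DEX + RU-486 against control and Uba6 (-0.124 to 0.0266) against DEX. The causes were not tested. No paired analysis was possible because no replicate number is shared between groups. The lowest count in any library, 64 for Nae1 and 33 for Atg7, limits what these members can show.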
